A study of Mus musculus with 30 samples.

Results

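CTCF and cohesin are the proteins that fold interphase chromatin into loops. The 8 genes described here are Ctcf, the core ring genes Smc1a, Smc3 and Rad21, the alternative ring subunits Stag1 and Stag2, the loader Nipbl and the release factor Wapl. They were chosen by name for their known roles, with earlier results of these data known. Of the 8 genes, 7 have a row in the RNA count table, which holds 13752 genes; Wapl has none and is followed by its chromatin only. The 8 genes carry 29 of the 151630 ATAC-seq peaks by annotated gene, and 10 of these peaks are annotated to a promoter.

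Cohesin is a ring that is loaded on DNA by NIPBL and extrudes a loop until it meets CTCF bound to its motif, and WAPL takes it off again. STAG1 and STAG2 are mutually exclusive subunits through which the ring meets CTCF. In neurons, which do not divide, the complex is known mainly for its part in gene regulation, such as the choice of clustered protocadherin promoters, rather than for holding sister chromatids together.

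The study followed sorted mouse retinal ganglion cells, whose axons make up the optic nerve, after that nerve was crushed. RNA-seq was analysed for 13 libraries from uncrushed nerves (day 0, n = 3) and from days 1 (n = 3), 2 (n = 2), 3 (n = 3) and 4 (n = 2) after crush. ATAC-seq, which reads where a transposase can reach the DNA, covered day 0 (n = 6), day 1 (n = 3) and day 3 (n = 6). All groups were of strain C57BL/6 by their labels, except that RNA day 0 replicates 2 and 3 are labelled C57BL/7 and C57BL/8. Cells were sorted after papain dissociation, with 5000 to 10000 cells per RNA library and 50000 to 100000 per ATAC library. The sources used here do not give the age or sex of the mice. Xist, the RNA made from the inactive X chromosome of female cells, differed between libraries: 206, 0.389 and 0.739 CPM on day 0, 1826, 1577 and 1159 on day 1, 0.561 and 1.3 on day 2, 961, 6.11 and 895 on day 3, and 4689 and 3583 on day 4. Both day 2 libraries were thus low and those of days 1 and 4 high, Smc1a and Stag2 are X-linked, and the part of sex in the members' levels was not tested. The labels do not tie replicates to individual mice, and p-values therefore reflect the spread among these libraries alone, which may be technical.

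RNA libraries held 19024286 to 27561352 counts and ATAC libraries 20006724 to 72579102 counts in peaks. The sorted cells carried all 12 listed ganglion cell markers, whose summed level lay between 10853 and 12117 CPM (counts scaled to a common library size) on day 0 and between 6645 and 6954 on day 4. Summed markers of glia (6 of 7 in the table, Gfap not among them) went from 295 to 327 CPM on day 0 to 710 to 807 on day 4, and none was at 0. Those of microglia (8 of 8, none at 0) were 37.8 to 68.7 CPM on day 0, 54.4 to 295 on day 1, 134 to 163 on day 2, 21.6 to 31.8 on day 3 and 97.2 to 161 on day 4. Rod markers (6 of 6, none at 0) ranged from 231 to 1061 CPM within day 0 alone, and 2 of 5 vascular and 2 of 5 oligodendrocyte markers were in the table. In bulk samples, fewer cells of a type and less RNA per cell cannot be told apart.

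The promoters of Ctcf and Stag1 are shown because the deposited footprints and motif matches described further on lie in them, and because each of these genes passed on 1 day in RNA. Each is 300 bases from RefSeq (GRCm38.p6), from 250 bases before the annotated start to 50 after it, written 5′ to 3′ on the plus strand. The Ctcf window is chr8:105636288-105636587 and the Stag1 window is chr9:100643198-100643497. Capitals mark the deposited ATF3 footprint site in Ctcf and the matches to the NRF1 motif, searched on both strands, in Stag1.
Ctcf promoter: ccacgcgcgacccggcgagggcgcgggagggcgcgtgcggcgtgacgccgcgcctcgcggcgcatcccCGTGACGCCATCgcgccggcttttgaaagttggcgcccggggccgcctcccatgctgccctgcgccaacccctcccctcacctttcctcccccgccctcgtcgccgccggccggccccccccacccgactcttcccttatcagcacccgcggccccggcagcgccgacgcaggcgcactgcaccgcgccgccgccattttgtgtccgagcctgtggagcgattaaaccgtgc
Stag1 promoter: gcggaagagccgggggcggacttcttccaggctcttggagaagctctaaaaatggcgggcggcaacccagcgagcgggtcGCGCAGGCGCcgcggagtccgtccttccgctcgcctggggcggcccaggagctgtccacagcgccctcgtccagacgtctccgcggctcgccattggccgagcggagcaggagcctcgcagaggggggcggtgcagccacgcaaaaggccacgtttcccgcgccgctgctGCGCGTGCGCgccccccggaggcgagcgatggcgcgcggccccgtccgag
Both windows are CpG-island-like in composition, with a GC content of 75.3% for Ctcf and 73.7% for Stag1.

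Across the time course, Ctcf, Smc1a and Stag1 messages were each higher on some days after crush, while those of Rad21, Smc3 and Stag2 did not pass the test on any day. Nipbl, whose product loads the ring, passed narrowly on day 2. The test was edgeR's quasi-likelihood test on counts, fitted to 13737 genes, with Benjamini-Hochberg adjustment and a threshold of 0.05. Against day 0, 0 of 7 members passed on day 1, where 11.4% of all genes did. On day 2, 2 of 7 passed, against 29.3% of all genes. On days 3 and 4, 1 of 7 passed, against 40.5% and 38.9% of all genes. These shares lie near or below the background, so the counts are no result about the members as a group. The day 1 count of 0 compares with 1 member (Stag1) at an unadjusted p under 0.05 in edgeR and 0 members in DESeq2. Taking the 4 days in 1 edgeR test, Ctcf (adjusted p = 0.0380), Smc1a (adjusted p = 0.00229), Stag1 (adjusted p = 0.00191) and Nipbl (adjusted p = 0.0367) passed, 4 of 7, where 47.1% of all genes did. The median log2 change of the members was -0.03, 0.14, 0.11 and 0.07 on days 1 to 4, against 0.01, 0.04, 0.03 and 0.06 over all genes.

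**Figure D1:**
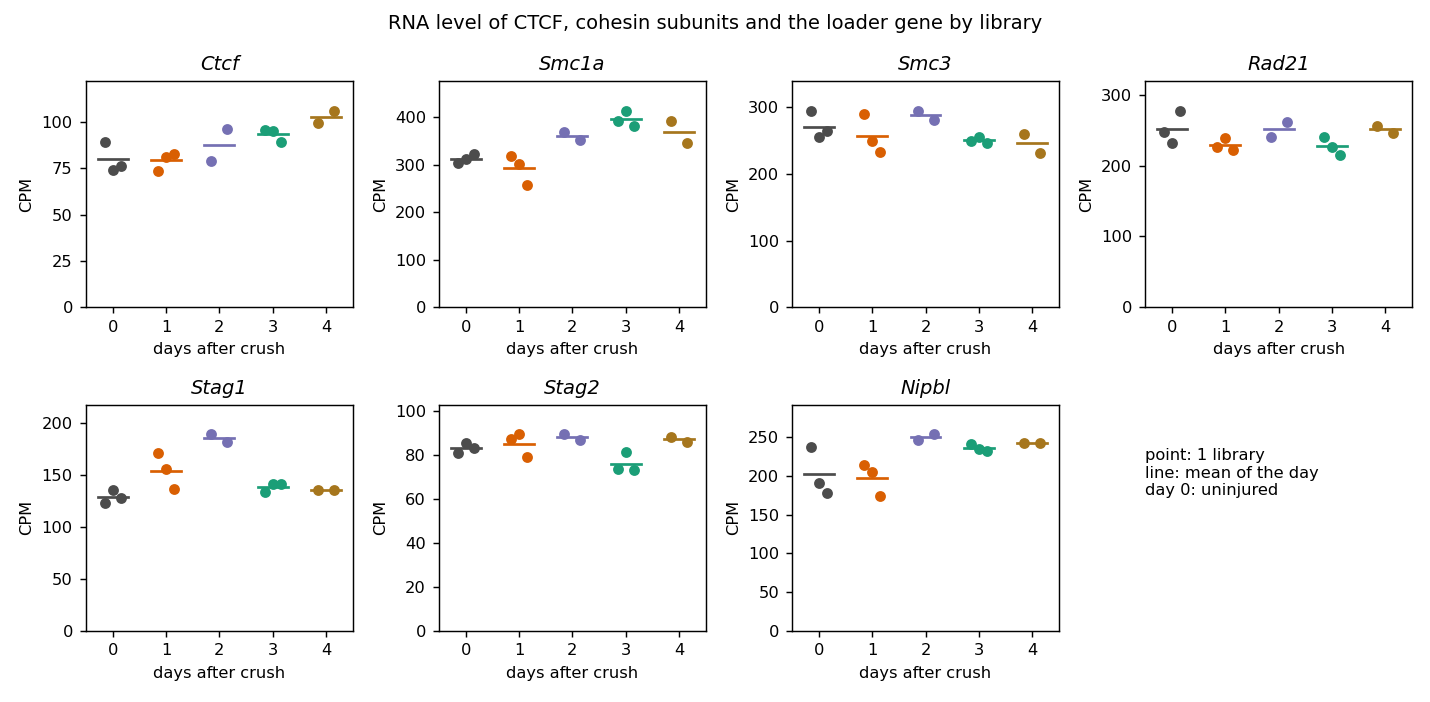
Level of the 7 members with RNA values in each library (vertical axes, CPM, each panel with its own scale) by day after crush (horizontal axis); points are libraries and the short line is the day's mean. Stag1 peaks on day 2, Smc1a is highest on day 3 and Ctcf is highest on day 4.

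Ctcf encodes the zinc finger protein that binds loop anchors. Its level was 89.1, 74.1 and 76.3 CPM in the day 0 libraries, 73.8, 81.4 and 82.7 on day 1, and 79.2 and 96.2 on day 2. It was 95.5, 95.4 and 89.4 CPM on day 3 and 99.6 and 106 on day 4. The day 3 and day 4 libraries all lay above the day 0 libraries, on day 3 only just, while days 1 and 2 overlapped day 0. On days 3 and 4, a non-overlap in this direction was seen for 24.6% and 30.5% of all genes. The day means were 79.8 ± 8.14 CPM on day 0 (SD, n = 3), 79.3 ± 4.80 on day 1 (SD, n = 3), 93.4 ± 3.51 on day 3 (SD, n = 3) and 103 ± 4.73 on day 4 (SD, n = 2). By edgeR, Ctcf rose 1.29-fold by day 4 (log2 change 0.37 ± 0.11 SE, 95% interval 0.13 to 0.60, adjusted p = 0.0154). The day 3 value was 0.23 ± 0.10 and did not pass (edgeR adjusted p = 0.0854). The day 4 call rested on single libraries: the edgeR adjusted p was 0.0616 without day 0 replicate 2 and 0.115 without day 4 replicate 3. It was 0.255 with the authors' sequencing components as terms, 0.0714 with the compared days alone and 0.0684 with limma on the deposited normalized values. Without day 0 replicate 1 the day 3 value passed (edgeR adjusted p = 0.0401). On day 4 the summed glial markers were also at their highest and the ganglion cell markers at their lowest, and their part in the Ctcf level was not tested.

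By a fixed rule, the 5 genes whose log2 CPM followed Ctcf most closely over the 13 libraries, among 10346 genes with a mean of at least 5 CPM, were Dusp18 (r = 0.937), Srsf7 (r = 0.924), Akirin2 (r = 0.917), Map3k7 (r = 0.914) and Tet3 (r = 0.908). These correlations are descriptions over libraries that share their day. Dusp18 encodes a dual-specificity phosphatase, Srsf7 a splicing factor, Akirin2 a nuclear adaptor protein, Map3k7 the kinase TAK1 and Tet3 a 5-methylcytosine dioxygenase. On day 4 their log2 changes were 2.52, 0.39, 0.73, 0.32 and 0.74 in that order, a direction that follows from choosing genes like Ctcf and is given as a description.

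Smc1a encodes 1 of the paired ATPase arms of the ring. Its level was 305, 313 and 323 CPM on day 0, 320, 303 and 257 on day 1 and 370 and 352 on day 2. It was 392, 415 and 381 CPM on day 3 and 392 and 346 on day 4. Every library of days 2, 3 and 4 exceeded every day 0 library, and day 1 overlapped day 0. A non-overlap in this direction was seen for 28.1%, 24.6% and 30.5% of all genes on days 2, 3 and 4. From 313 ± 8.94 CPM on day 0 (SD, n = 3), Smc1a rose to 396 ± 17.1 on day 3 (SD, n = 3), a 1.26-fold change (log2 0.34 ± 0.08 SE, edgeR adjusted p = 0.00378). Day 2 (0.21 ± 0.09, edgeR adjusted p = 0.111) and day 4 (0.24 ± 0.09, edgeR adjusted p = 0.0550) did not pass, and day 4 did without day 4 replicate 3 (edgeR adjusted p = 0.0479). The difference between days 3 and 1 was tested directly and was 0.43 ± 0.08, or 1.35-fold (edgeR adjusted p = 0.000653), where 33.5% of all genes passed. Days 2 and 4 also exceeded day 1 in edgeR, by 0.30 (adjusted p = 0.0417) and 0.33 (adjusted p = 0.0114), where 13% and 30.4% of all genes passed. The day 4 difference was not called without day 4 replicate 2 (edgeR adjusted p = 0.175). The day 3 rise against day 0 held without any 1 library of those days (edgeR adjusted p between 0.00672 and 0.0253) and was missed with limma on the deposited normalized values (adjusted p = 0.0531).

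The partner arm Smc3 and the closing subunit Rad21 did not pass on any day. Smc3 lay between 256 and 294 CPM on day 0, 233 and 290 on day 1, 281 and 295 on day 2, 246 and 256 on day 3 and 232 and 260 on day 4. Rad21 lay between 231 and 278 CPM on day 0, 222 and 239 on day 1, 241 and 262 on day 2, 215 and 241 on day 3 and 246 and 256 on day 4. Both overlapped day 0 on each of the 4 later days. Over the 4 days the 95% intervals of the log2 change ran from -0.35 to 0.29 for Smc3 and from -0.32 to 0.19 for Rad21, so changes within these limits remain possible.

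Stag1 and Stag2 encode the exchangeable subunits of the ring, and only for Stag1 did any day pass. Stag1 was at 122, 135 and 128 CPM on day 0 and at 171, 155 and 136 on day 1. It reached 189 and 182 CPM on day 2 and was 133, 141 and 141 on day 3 and 135 and 135 on day 4. The day 2 libraries were the highest of the series, days 1 and 4 lay just above day 0, and day 3 overlapped day 0. A non-overlap in this direction was seen for 13.9%, 28.1% and 30.5% of all genes on days 1, 2 and 4. From 128 ± 6.37 CPM on day 0 (SD, n = 3) Stag1 rose 1.44-fold to 185 ± 5.00 on day 2 (SD, n = 2), a log2 change of 0.53 ± 0.10 SE with a 95% interval of 0.32 to 0.73 (edgeR adjusted p = 0.000548). This call held without any 1 library of those days (edgeR adjusted p between 0.00206 and 0.0109). The day 1 value of 0.26 ± 0.09 did not pass (edgeR adjusted p = 0.0648) and passed without day 1 replicate 3 (edgeR adjusted p = 0.0213). Stag1 then fell from day 2 to day 3 by 0.42 ± 0.10 on the log2 scale (edgeR adjusted p = 0.00635) and from day 2 to day 4 by 0.46 ± 0.11 (edgeR adjusted p = 0.00854), where 16.9% and 13% of all genes passed. Without day 2 replicate 1 the edgeR adjusted p values of these falls were 0.0743 and 0.0738, and the day 4 fall also missed the threshold without day 4 replicate 2 (0.0623) or replicate 3 (0.058). Summed microglial markers were higher on day 2 than on days 0 and 3 and reached their highest value on day 1, and their part in the Stag1 level was not tested.

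Stag2 was at 81.1, 85.8 and 83.3 CPM on day 0, 87.6, 89.5 and 79.0 on day 1 and 89.6 and 87.0 on day 2. It was 73.7, 81.4 and 73.4 CPM on day 3 and 88.4 and 86.0 on day 4. Its log2 changes of 0.03, 0.08, -0.13 and 0.06 did not pass in edgeR, and the 95% intervals ran from -0.31 to 0.29. The ratio of Stag1 to Stag2 counts was 1.51 to 1.57 in the day 0 libraries, 1.72 to 1.95 on day 1, 2.09 to 2.11 on day 2, 1.73 to 1.92 on day 3 and 1.53 to 1.57 on day 4. The ratio is not a ratio of molecules, since no transcript lengths were used. Its day 1, 2 and 3 values lay above all day 0 values, and day 4 had returned to the day 0 range.

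**Figure D2:**
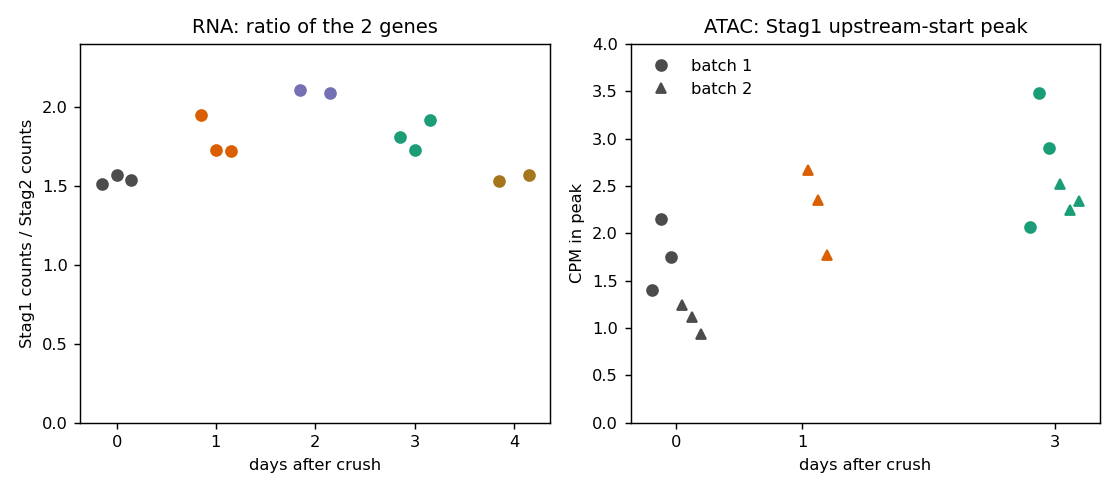
Left, ratio of Stag1 to Stag2 counts in each RNA library by day. Right, normalized ATAC counts (CPM) on days 0, 1 and 3 of the weak Stag1 peak from base 100599665. This peak lies upstream of the main Stag1 promoter peak. Points are libraries, and on the right the symbol marks the batch. The ratio is highest on day 2 (2.09 to 2.11), and the peak is at 0.939 to 2.15 on day 0 and 2.07 to 3.48 on day 3.

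Nipbl, the cohesin loader, was at 238, 191 and 178 CPM on day 0, 214, 205 and 174 on day 1 and 246 and 254 on day 2. It was 241, 235 and 232 CPM on day 3 and 242 and 243 on day 4. Day 0 replicate 1 was the highest of its group and close to the later days. The day 2 log2 change was 0.31 ± 0.11 SE (edgeR adjusted p = 0.0496). That call was lost without any 1 of day 0 replicate 2 (0.173), day 0 replicate 3 (0.214), day 2 replicate 1 (0.132) or day 2 replicate 2 (0.212), and in DESeq2 (adjusted p = 0.0642). Days 3 and 4 were at 0.22 and 0.26 and did not pass, and both passed in edgeR without day 0 replicate 1 (adjusted p = 0.0103 and 0.00821). As a description over the 13 libraries, Nipbl correlated with Smc1a (r = 0.730) and with Ctcf (r = 0.683), and Ctcf with Smc1a (r = 0.529); the libraries share their days and depths.

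The wider machinery was read from lists of known partners. From each list, the genes named below are up to 4 with the smallest edgeR p over the 4 days. Their small p-values follow from that choice and are given as a description. Over all genes tested in edgeR, 5.93%, 14.8%, 20.4% and 19.8% were higher and 5.45%, 14.5%, 20.1% and 19% lower on days 1 to 4. Of 22 cohesin regulators, 16 were tested, and in edgeR 0 were higher and 1 lower on day 1, 4 and 1 on day 2, 4 and 3 on day 3, and 4 and 1 on day 4. Espl1, which encodes separase, rose from 0.477 to 3.74 CPM by day 2 (log2 2.91 ± 0.67, edgeR adjusted p = 0.00361). Pttg1, which encodes its inhibitor securin, fell by 0.60 ± 0.15 on the log2 scale by day 3 (edgeR adjusted p = 0.00321), and Rec8, the meiotic counterpart of Rad21, by 0.90 ± 0.23 (edgeR adjusted p = 0.00444). The list's median log2 change was -0.09, 0.17, 0.31 and 0.07 on days 1 to 4.

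Relatives of cohesin, the condensin and SMC5/6 complexes, showed higher calls and no lower ones: 0, 3, 3 and 4 of 14 tested on days 1 to 4, with medians of 0.05, 0.24, 0.19 and 0.30. Smc6 rose from 159 to 252 CPM by day 2 (log2 0.66 ± 0.10, edgeR adjusted p = 5.88e-05) and Smc5, its partner in DNA repair, from 55.7 to 86.7 CPM by day 4 (log2 0.64 ± 0.11, edgeR adjusted p = 0.000146). Ncapg2, a condensin II subunit, rose from 14.1 to 29.3 CPM by day 4 (log2 1.06 ± 0.19, edgeR adjusted p = 0.000200). The fourth gene called on day 4 was Nsmce1, a subunit of the SMC5/6 complex (log2 0.80 ± 0.25, edgeR adjusted p = 0.0173). It lies outside the rule for named genes and was named after its values were seen. Of the division markers, 8 of 15 were tested and 1 was higher on each day. Mki67, the marker of dividing cells, was that gene on day 2 (log2 3.13 ± 0.83, edgeR adjusted p = 0.00927; 0.0661 without day 2 replicate 2).

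Among 17 tested genes for proteins that work with CTCF, 1, 6, 5 and 3 were higher and 0, 2, 2 and 2 lower on days 1 to 4, with medians of -0.02, 0.09, 0.02 and 0.00. Vezf1, a zinc finger factor of insulators, rose from 103 to 153 CPM by day 3 (log2 0.57 ± 0.08, edgeR adjusted p = 1.72e-05). Parp1, the poly(ADP-ribose) polymerase, fell from 42.5 to 25.1 CPM by day 3 (log2 -0.76 ± 0.14, edgeR adjusted p = 0.000238). Maz, a zinc finger factor found beside CTCF, fell from 47.4 to 29.4 CPM by day 2 (log2 -0.69 ± 0.14, edgeR adjusted p = 0.00129).

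The clustered protocadherins, a family of cell surface proteins, mostly did not pass. CTCF and cohesin are known to select the promoters of many of them, though not of all. Whether they act at the promoters of the genes named below was not tested. Of 56 tested, 1, 2, 2 and 1 were higher and 2, 2, 8 and 8 lower on days 1 to 4, with medians of -0.05, -0.02, -0.18 and -0.07. Pcdhgc4 fell from 35.8 to 4.31 CPM by day 3 (log2 -3.05 ± 0.22, edgeR adjusted p = 8.52e-09), while Pcdhgc5 rose from 6.72 to 21.4 CPM by day 2 (log2 1.67 ± 0.27, edgeR adjusted p = 0.000156). Pcdhb9 rose from 21.4 to 37.2 CPM by day 1 (log2 0.80 ± 0.17, edgeR adjusted p = 0.00496). Pcdhac2 was lower on all 4 days, by 0.69 to 0.94 on the log2 scale. Members of the alpha and gamma clusters share constant exons and the beta genes are close in sequence, so how counting split those reads makes these values uncertain. Adding the 5 lists, 6 genes passed on day 1 (3 higher, 3 lower), 21 on day 2 (16 and 5), 28 on day 3 (15 and 13) and 24 on day 4 (13 and 11). With DESeq2's size factors the split was 3 and 5, 14 and 6, 14 and 16, and 11 and 13, and with library size only it was 5 and 2, 17 and 4, 18 and 10, and 18 and 7.

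Accessibility at CTCF motifs was lower in every library after crush than in any library before it. It was read from the deposited chromVAR z-score, for 1312 motif matrices, 2 of them for CTCF. The score compares a library's reads in peaks that hold a motif with those expected from all scored libraries together. Matched background peaks correct and scale it. A score of 0 is thus set by the libraries scored and is no absolute level of accessibility. For the mouse matrix (HOCOMOCO), the 6 day 0 libraries had z-scores of 5.61 at the lowest, 29.9 at the median and 38.4 at the highest. The 3 day 1 libraries stood at -11.8, -10.2 and -22.1. The 6 day 3 libraries ran from -28.6 through a median of -19.2 to -15.5. Every day 0 library was above 0 and every later library below it, with no overlap, and days 1 and 3 overlapped each other. How many of the 1312 matrices also had no overlap with day 0 was not counted.

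With the authors' batch number as a term in limma, the score was lower by 45.2 ± 5.60 (SE) on day 1 (adjusted p = 6.0e-06) and by 46.3 ± 4.23 on day 3 (adjusted p = 1.69e-06). Days 3 and 1 differed by -1.10 ± 5.60 (limma adjusted p = 0.867), where 74.5% of all matrices passed. Movement itself was common: 83.7% of all matrices passed on day 1 (75.7% lower) and 84.1% on day 3 (58.2% lower), and the median difference over all matrices was -8.39 and -3.85. The mouse CTCF matrix had the lowest difference of the 1312 on both days, just ahead of PITX1 and IRF9 matrices on day 1 and of TAL1, CRX and PITX1 matrices on day 3. OTX2, OTX1, RHOXF1 and SPI1 matrices were also among the lowest 8 on day 1, and GSC and NDF1 matrices on day 3. Markers of other cells were read from RNA only, and the part of other cells in the ATAC scores was not tested. The human CTCF matrix (JASPAR) gave -43.6 ± 5.18 and -44.8 ± 3.92, with ranks of 2 and 7, and is no second measurement, since it matched the mouse matrix over the libraries with r = 0.998. An exact two-sided permutation test within batches gave p = 0.005 on day 3, the smallest that its 400 arrangements allow. For day 1 the same exact test gave p = 0.1, again the smallest possible with 20 arrangements.

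**Figure D3:**
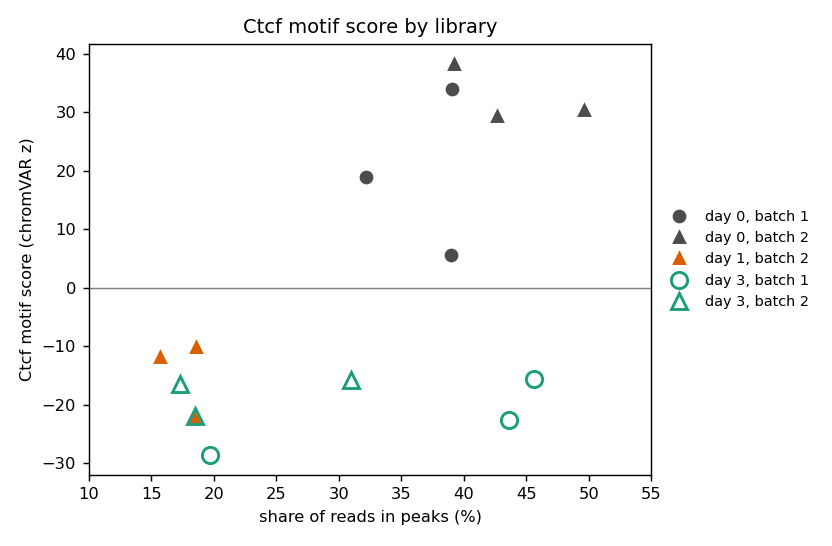
CTCF motif score of the mouse matrix in each ATAC library (vertical axis, chromVAR z-score) against the share of its reads in peaks (horizontal axis, percent); colour marks the day and the symbol the batch. Day 0 lies above 0 and days 1 and 3 below it, also for the 2 day 3 libraries whose share of reads in peaks is 43.6% and 45.6%.

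The libraries differed in batch and in the share of reads that fell in peaks, a measure of signal over background. The share was 32.2 to 49.6% on day 0, 15.7 to 18.6% on day 1 and 17.3 to 45.6% on day 3, so on day 1 it was lower in every library. Batch 1 holds day 0 replicates 4 to 6 and day 3 replicates 4 to 6, batch 2 holds the rest, and no day 1 library is in batch 1. In batch 1 alone the day 3 difference was -41.8, and in batch 2 alone it was -50.7, with -47.4 on day 1. Day 3 replicates 5 and 6, with 45.6% and 43.6% of reads in peaks, had z-scores of -15.5 and -22.6, whereas day 3 replicate 2, with 17.3%, had -16.4. Across the 6 day 3 libraries r between score and share was 0.305 (rho = 0.314, permutation p = 0.642 and 0.564, exact) and across the 6 day 0 libraries 0.322 (rho = 0.486, permutation p = 0.508 and 0.356, exact). Without the 2 libraries farthest from the median share, r was 0.415 on day 3 and 0.159 on day 0. Across the 9 batch 2 libraries, which hold all 3 days, r was 0.888 (rho = 0.700, exact permutation p = 0.0170 and 0.0433, Benjamini-Hochberg adjusted p = 0.0700 and 0.304), and 0.799 without the 2 farthest. Across the 6 batch 1 libraries it was 0.170 (rho = 0.0857, exact permutation p = 0.797 and 0.919). These are among 8 relations computed, and the adjusted p was at least 0.711 for those within a day and 0.919 for batch 1. With the share added as a term, limma gave -38.6 on day 1 (adjusted p = 0.000473) and -42.8 on day 3 (adjusted p = 2.3e-05). The shares of days 0 and 1 do not overlap, so on day 1 this term cannot separate the day from the share. Leaving out single libraries kept the differences between -47.4 and -41.5 on day 1 and between -49.8 and -43.5 on day 3.

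At the members' own promoters, the strong peaks of Ctcf, Rad21 and Stag1 were lower on day 1. The weak Stag1 peaks upstream of its main promoter peak were higher on day 3. Counts per peak were tested with edgeR, with batch as a term, over all 151630 peaks. On day 1, 4 of 10 member promoter peaks passed, 1 higher and 3 lower, against 7.84% of all peaks (5.44% higher, 2.4% lower). On day 3, 2 of 10 passed, both higher, against 23.8% of all peaks (16.4% higher, 7.39% lower). Between days 3 and 1, 0 of 10 passed in edgeR and in DESeq2, with 1 at an unadjusted p under 0.05, against 1.18% of all peaks.

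The Ctcf promoter peak (chr8:105633915-105640509, mm10) covers the sequence shown above. It held 84.1, 92.9 and 101 CPM at the lowest, median and highest of the 6 day 0 libraries. It held 69.0, 64.7 and 61.4 CPM on day 1 and 59.5, 73.2 and 98.8 at the lowest, median and highest on day 3. Day 1 lay below day 0 and day 3 overlapped it. The same held at the main promoter peaks of Smc3, Stag2, Nipbl and Wapl, which did not pass on day 1. The share of all peaks without overlap was not counted. The edgeR log2 difference was -0.55 ± 0.15 on day 1 (adjusted p = 0.0334) and -0.28 ± 0.11 on day 3 (adjusted p = 0.0732). The Rad21 peak (chr15:51989681-51993472) and the main Stag1 peak (chr9:100641378-100646596) were also lower on day 1, by log2 differences of -0.53 ± 0.16 (edgeR adjusted p = 0.0480) and -0.56 ± 0.15 (edgeR adjusted p = 0.0313).

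Strong peaks, of log2 CPM of at least 5, were found at the promoters of Smc3, Stag2, Nipbl and Wapl as well. The 7 strong peaks ranged from -0.56 to -0.34 on day 1 and from -0.28 to -0.15 on day 3. All 7001 strong promoter peaks of the table had medians of -0.41 and -0.17, and 24.9% and 13.9% of them were called lower. On day 1, 6 of the 7 lay below the median of strong promoters and 3 (Ctcf, Rad21 and the main Stag1 peak) below its lower quartile of -0.47. On day 3, 5 of the 7 lay below the median and 1 (Ctcf) below the lower quartile of -0.25. The day 1 libraries had the lowest shares of reads in peaks: with that share added to the fit, 0 of the 10 peaks were called on day 1. No member promoter peak was called on day 1 without day 0 replicate 1, day 0 replicate 3 or any 1 day 1 library, and 1 was called without day 0 replicate 2. In the authors' deposited table the Ctcf peak is at 0.06 on day 1 (adjusted p = 0.803) and at -0.18 on day 3 (adjusted p = 0.164), the Rad21 peak at 0.07 and -0.16, and the main Stag1 peak at 0.02 and -0.11. The groups of that table carry the extra label nonTarget, and the libraries behind them are not named. Scaling by library size only raised the peaks' day 1 log2 values by a median of 0.22, and with it edgeR called 25176 peaks higher and 2012 lower on day 1, against 8249 and 3635 in the reported fit and 7307 and 7677 with DESeq2's size factors.

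**Figure D4:**
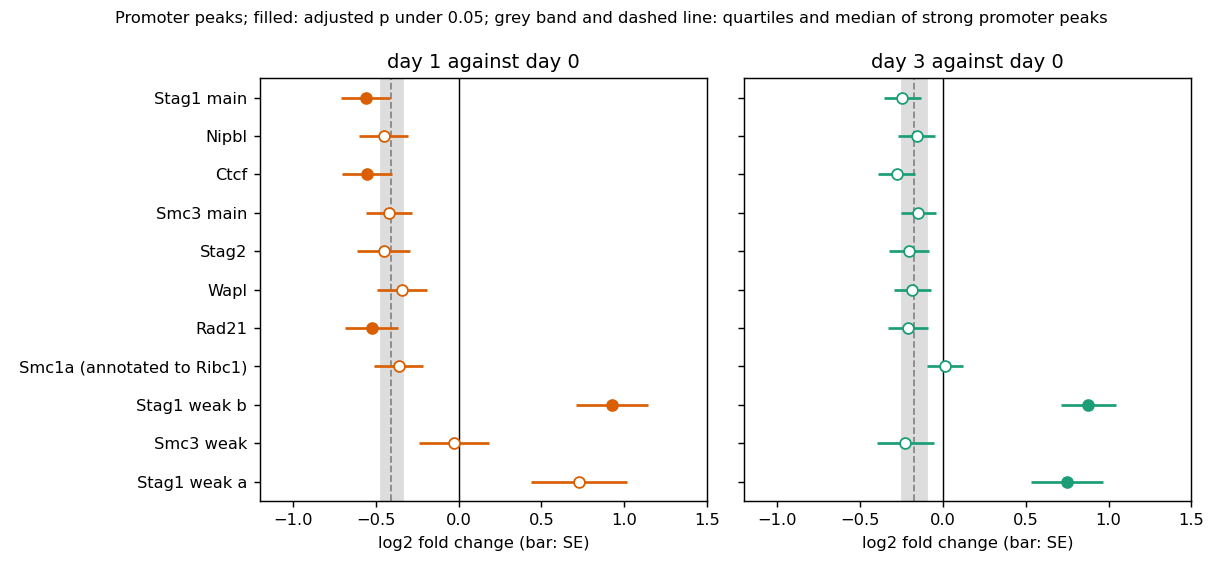
Log2 difference from day 0 of each promoter peak of the members (points, with standard errors as bars) on days 1 and 3, with the quartiles and median of strong promoter peaks as a grey band and dashed line and peaks with an adjusted p under 0.05 filled. The strong peaks sit inside or near the band, and the weak upstream Stag1 peaks (a, from base 100598771, and b, from base 100599665) lie on the other side of 0.

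No peak carries the Smc1a gene ID. The peak at its start site (chrX:152015486-152018337) is annotated to the neighbouring Ribc1, and its log2 differences were -0.36 on day 1 and 0.01 on day 3. It held 39.4, 41.8 and 48.1 CPM at the lowest, median and highest on day 0 and 32.3, 44.4 and 52.3 on day 3. The Smc1a message was higher on day 3, while the counts at this peak overlapped between days 0 and 3.

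The 2 peaks of Stag1 upstream of its main promoter peak were weak. Both are annotated as promoters of a Stag1 transcript and lie 973 and 1867 bases downstream of its start. The farther one (chr9:100599665-100600165) held 0.939, 1.32 and 2.15 CPM at the lowest, median and highest on day 0. It held 2.67, 2.35 and 1.77 CPM on day 1 and 2.07, 2.43 and 3.48 at the lowest, median and highest on day 3. The day 3 range overlapped the top of the day 0 range. In edgeR the peak rose by 0.88 ± 0.17 on the log2 scale, or 1.84-fold, by day 3 (adjusted p = 0.000495), and by 0.92 ± 0.22 on day 1 (adjusted p = 0.0203). The day 3 rise held without any 1 library (edgeR adjusted p between 0.000105 and 0.0021). It was 1.01 in batch 2 alone (adjusted p = 0.000883) and 0.66 in batch 1 alone, which did not pass (edgeR adjusted p = 0.116). The day 1 rise was not called once the share of reads in peaks was in the fit (1.03, edgeR adjusted p = 0.0871), and its edgeR adjusted p ran from 0.0174 to 0.0794 when single libraries were left out. The authors' deposited table lists this peak at 1.00 on day 1 (adjusted p = 0.0326) and at 0.69 on day 3 (adjusted p = 0.0152). The nearer peak (chr9:100598771-100599127), with 0.505 to 1.62 CPM on day 0 and 0.927 to 1.91 on day 3, rose by 0.75 ± 0.22 by day 3 (edgeR adjusted p = 0.0135) and was at 0.57 in the authors' deposited table (adjusted p = 0.0617). Stag1 was thus the member whose weak upstream peaks were higher on day 3, and its message was higher on day 2, a day without ATAC libraries.

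Of the 19 member peaks outside promoters, 3 passed in edgeR on day 3, 2 higher and 1 lower, where 18.7% and 6.83% of all peaks outside promoters were higher and lower. On day 1, 0 passed in edgeR, against 6.46% and 0.815%. An intronic Rad21 peak (chr15:51978428-51978791) rose by 1.18 ± 0.22 (adjusted p = 0.000342) and an intronic Nipbl peak (chr15:8382034-8383062) by 0.60 ± 0.15 (adjusted p = 0.00462). An intronic Wapl peak (chr14:34734339-34734513) fell by 0.70 ± 0.21 (adjusted p = 0.0180). The mean levels of these peaks on day 0 were 0.792, 1.92 and 0.904 CPM, and each overlapped between the days.

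The authors' deposited footprint tables, which score protection of bases at sites of ATF3, ATF4, CEBPG and DDIT3 from libraries pooled by day, list 12 sites at member genes, 9 of them for ATF3 at 5 genes. The day groups of these footprint tables also carry the label nonTarget, without naming their libraries. These 4 factors are bZIP proteins of the stress response. In the Ctcf promoter the ATF3 site at chr8:105636356-105636367, CGTGACGCCATC, scored 1.29, 1.38 and 1.73 on days 0, 1 and 3 and was called bound on all 3. The site lies in capitals in the sequence above. In the weak upstream Stag1 peak, overlapping CEBPG, ATF4, ATF3 and DDIT3 sites (chr9:100599910-100599924) scored 0.107 on day 0 and 0.149 on day 3 and were called unbound on day 0 and bound on days 1 and 3. These are 1 stretch of DNA and not 4 observations. All of the 12 listed sites were called bound on day 1, so that call is not particular to Stag1. How often sites at other genes went from unbound to bound was not counted. An ATF3 site in the main Stag1 promoter peak (chr9:100642567-100642575), outside the printed window, scored 0.144, 0.227 and 0.318 and was called bound on days 1 and 3. The tables give no replicates, so these differences have no test.

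RefSeq promoter windows were at hand for 5 of the 8 members, Ctcf, Smc1a, Smc3, Stag1 and Wapl. Of 7 motifs searched on both strands, only NRF1 matched, in Stag1 at both of the places marked and in Wapl at 99 bases before the start (GCGCCTGCGC). In Stag1 the matches, GCGCAGGCGC and GCGCGTGCGC, begin 170 bases before the start and at it. This motif is in 4.6% of 32851 promoters of the same length. The CTCF core (2.43% of promoters), the CRE TGACGTCA (1.79%), the AP-1 site TGANTCA (7.81%), the ATF4/CEBP composite TGATGNAA (3.97%), the YY1 site AAGATGGCG (1.4%) and the ETS site CCGGAAGT (3.89%) were not found in the 5 windows as spelled.

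The authors' deposited correlations link the assays. Their table of motif scores against RNA lists Ctcf at -0.684, with an unadjusted p of 0.00496, at rank 39 from the most negative of 338 factors (a negative value stands for a lower score where the message is higher). Promoter peaks against RNA are listed for Rad21 (0.550), Smc1a (0.284) and Stag2 (0.348), none with p under 0.05, where the median of 6882 pairs is 0.373 and 15.4% have p under 0.05. Distal peaks against RNA are listed for Ctcf (30 pairs, median 0.420, 1 with p under 0.05), Smc3 (31 pairs, median 0.531, 5 with p under 0.05) and Nipbl (17 pairs, median 0.294, 0 with p under 0.05), where 9.29% of 169469 pairs have p under 0.05. The authors' deposited RNA table, whose groups carry the extra label NT and whose library set is not stated, gives Ctcf -0.05 on day 1 (adjusted p = 0.920) and 0.07 on day 3 (adjusted p = 0.823). It gives Stag1 0.22 on day 1 (adjusted p = 0.471) and 0.46 on day 3 (adjusted p = 0.0298), and Smc1a 0.14 on day 3 (adjusted p = 0.650). From the counts, the day 3 values were 0.23 for Ctcf, 0.11 for Stag1 and 0.34 for Smc1a. Smc3 and Stag2 also differ on day 3, at 0.02 and 0.02 there and -0.11 and -0.13 from the counts. Nipbl was closer, at 0.24 and 0.22, and Rad21 was at -0.07 and -0.15.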

How the data were processed

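RNA-seq and ATAC-seq of sorted retinal ganglion cells were analysed from tables the authors deposited. The members and gene lists were chosen with earlier results of these data known. Per the submitters' processing notes, RNA reads went through STAR, Picard, HTSeq and edgeR (mm10), and ATAC reads through Trim Galore and FastQC, Bowtie2, Picard and SAMtools, MACS2 and bedtools, then ChIPseeker, DESeq2 and featureCounts of Subread (GRCm38, mm10), without versions or settings. The authors deposited raw counts per gene and per consensus peak, log2 normalized expression and fold changes, adjusted p-values, chromVAR z-scores and footprint scores, correlations as scores, and the fraction of reads in peaks (printed as percent). The consensus peaks, the motif scores and the footprints were used as deposited, so the authors' peak calling sets which sites are counted. The samples were grouped by their titles and treatment labels, and the peaks were taken by annotated gene.

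Counts were fitted with edgeR 4.0.16 (quasi-likelihood test, TMM scaling, filterByExpr, R 4.3.3), RNA by day over all 13 libraries and ATAC by day and batch over all 15. All 7 members in the RNA table and all 10 promoter peaks passed the filter on low counts. Motif scores were fitted with limma 3.58.1 by day and batch. CPM are TMM-scaled, fold changes are fitted, tests are two-sided and calls have an adjusted p under 0.05 over all features. The scripts were tested on simulated data. In RNA, 46% and 47% of genes changed 2-fold were called on days 3 and 4. Of genes changed 1.3-fold, 1% and 4% were called, so most such changes were missed. For ATAC peaks on days 1 and 3 it was 52% and 84% at 2-fold and 1% and 3% at 1.3-fold. Features were drawn at random whatever their level, so the share at the members' levels was not measured. Correlations of motif score with share and their exact permutations used numpy 2.4.6, with ranks from scipy 1.17.1. Correlations between genes and the permutation of day labels were computed in R. Named genes were all members, up to 4 genes per list with the smallest p over the 4 days, the 5 genes most like Ctcf, all promoter peaks and, of a member's other peaks, the 1 with the smallest p. A gene of the partner lists that this rule also names is not reported here. Alternatives were DESeq2 1.42.0, its size factors, library size only, other filters, a 1.5-fold minimum, fewer or more terms, single batches, limma on the deposited log2 values and each library left out. Comparisons between later days, within-day correlations and the strong promoter background were added after seeing the data. Left unused were 36 columns of per-library values in the authors' correlation tables and the peak lists of single libraries. Replicate numbers are shared between days but no label says that they mark a shared animal, litter or batch.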

Additional observations from a re-analysis of the deposited data

Results flagged for a closer look

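In 3 members the change since day 0 differed between days when the difference itself was tested in edgeR. Ctcf was higher on day 4 than on day 1 by 0.376 on the log2 scale (adjusted p = 0.0167), and not called without day 1 replicate 1 (0.0527) or day 4 replicate 3 (0.123). Smc1a was higher on day 3 than on day 1 by 0.434, on day 2 by 0.301 and on day 4 by 0.332. Stag1 differed between days 3 and 2 by -0.423 and between days 4 and 2 by -0.455. In ATAC, no motif score or promoter peak value stood apart from the other libraries of its group. This was looked at in 26 groups of days 0 and 3, where chance alone would single out about 1 in 20. The RNA groups and the day 1 ATAC groups were too small to be looked at.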

How the results depend on the processing

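Over all results and alternatives run, 4073 of 4543 values were classed as unchanged. For a test this means the same side of the threshold, and for a count a value within 1.5-fold of the reported one. Among these 4073, 145 values changed sign while passing the test in neither fit. Where calls were lost or gained below, the cause was not tested. Member counts in RNA were 0, 2, 1 and 1 on days 1 to 4 and 1 for day 3 against day 1. DESeq2 gave 1 on day 2 and 3 for day 3 against day 1, its size factors 1 on day 2, and a mean count of at least 20 gave 1 on day 2. Library size only gave 1 on day 1, 3 on days 3 and 4 and 2 for day 3 against day 1. Fitting the compared groups alone gave 1 on day 2, 0 on day 4 and 2 for day 3 against day 1, and 2 genes of the partner lists on day 1. Sequencing components gave 2 for day 3 against day 1. A 1.5-fold minimum gave 0 in each comparison, and for the partner lists 12 on day 2, 17 on day 3 and 10 for day 3 against day 1, while DESeq2 gave 10 on day 1. Deposited normalized values with limma gave 1 on day 2 and 0 on days 3 and 4. Leaving out single libraries gave 0 to 1 members on day 1, 1 to 2 on day 2, 1 to 3 on day 3, 0 to 2 on day 4 and 1 to 2 for day 3 against day 1, and in the partner lists 3 to 7, 12 to 20 and 14 to 24 on days 1, 2 and 4.

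Same-numbered RNA libraries share only a number: their deviations correlated between -0.267 and 0.206 against day 0. With the replicate block, 1 member passed on day 2, 2 on day 3, 3 on day 4 and 2 for day 3 against day 1. In ATAC the numbers follow the batch, and with the block in place of batch 3, 2 and 0 promoter peaks passed on day 1, on day 3 and between them.

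Member promoter peaks numbered 4 on day 1 and 2 on day 3. On day 1 DESeq2 and its size factors each gave 7, the fit without batch, the fit with the share of reads in peaks and the deposited batch-adjusted values with limma each gave 0, and batch 2 alone gave 9. On day 3 library size only gave 4, the fit without batch and the fit with the share gave 1, batch 1 alone 0 and batch 2 alone 5. Without single libraries the counts were 0 to 5 and 2 to 6. With the deposited batch-adjusted values the day 1 differences turned to 0.03224 for Ctcf, 0.04503 for Rad21 and 0.005159 for the main Stag1 peak. The exact permutation, which cannot pass on day 1, gave motif differences of -47.39 and -44.70. Between days 3 and 1 the motif difference ran from -4.787 to 1.16 (mouse matrix) and from -5.044 to 1.584 (human matrix) without single libraries. Within batch 1, where the days form separate clusters, the correlation of score and share without the 2 farthest libraries was -0.8215 and -0.8516. The weak upstream Stag1 peaks held 0.505 to 3.48 CPM in the libraries of days 0 and 3, so few reads stand behind them.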

Other observations

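The summed markers of other retinal cells were as follows, as values only. Those of bipolar cells were 134 to 170 CPM on day 0 and 148 to 160 on day 4. Those of amacrine and horizontal cells were 501 to 783 CPM on day 0, 714 to 816 on day 2 and 445 to 485 on day 4. Those of cones were 11.9 to 21.8 CPM on day 0 and 12.9 to 17.3 on day 4. Summed division markers were 44.3 to 55.6 CPM on day 0 and 67.4 to 71.4 on day 4. Vascular markers were 2.61 to 8.25 CPM on day 0 and 8.34 to 8.56 on day 4, and oligodendrocyte markers 25.4 to 27.4 on day 4.

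The authors' deposited variability table gives the mouse CTCF matrix a value of 24.05, ranked 21 of the 1312 matrices, and the human one 23.19, ranked 24. Their distal pairs list 4 peaks for Stag2 (median correlation 0.663, 1 with p under 0.05) and 1 for Rad21 (0.125). The deposited ATF3 footprint table also lists an intronic Nipbl site (chr15:8382485-8382493) inside the intronic peak that rose on day 3, with scores of 0.0727, 0.161 and 0.132 on days 0, 1 and 3, called bound on day 1 alone. An ATF3 site in the Stag2 promoter (chrX:42149929-42149939) scored 0.218, 0.248 and 0.244 and was called bound on all 3 days.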
